A study of Mus musculus with 9 samples.

Results

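The 10 genes described here are Tmem123, Cacnb3, Cd200, Birc3, Traf1, Samsn1, Slco5a1, Lamp3, Anxa3 and Gadd45b, a set commonly listed among the genes of mature dendritic cells. The members were taken by gene symbol from a list drawn up with earlier results of these data known, and each matched 1 of the 45535 rows of the expression table that carry a symbol. All 10 were among the 18202 rows tested. Bulk RNA was sequenced from lung cells of C57/BL6j mice given bleomycin for 7 days, labelled as CD103+ dendritic cells and enriched on magnetic beads from collagenase-digested lung. The group before culture holds 5 samples harvested directly, and the group after culture holds 4 samples kept for 18 h ex vivo in RPMI with serum and antibiotics. All mice in both groups had received bleomycin, so the comparison is of cultured with uncultured cells from treated lungs. Another label describes the extract as RNA of whole lung, and the cell type label was therefore checked against markers.

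Dendritic cells sample antigen in tissue and then mature, a switch in which they take up less antigen, migrate towards lymph nodes and display ligands that stimulate or restrain T cells. Maturation draws on NF-kappaB, which is reached through a fast canonical branch and a slower non-canonical branch downstream of receptors of the tumour necrosis factor (TNF) family. The 10 genes do not form 1 pathway. Traf1 and Birc3 encode parts of the TNF receptor signalling machinery, and Gadd45b encodes a stress sensor that binds kinases. Tmem123, Cd200 and Lamp3 encode membrane proteins, Samsn1 a signalling adaptor, Cacnb3 a calcium channel subunit, Slco5a1 a solute carrier and Anxa3 a calcium-dependent phospholipid-binding protein.

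Values are normalized read counts, that is, reads per gene divided by 1 factor per sample, and depth was 14.7 to 35.3 M reads per sample in rows with a symbol. The gene for CD103, Itgae, was at 18138 ± 1537 normalized counts before culture (SD, n = 5) and 1727 ± 335 after it (SD, n = 4). Of 9 markers of type 1 conventional dendritic cells 8 were lower and 1, Batf3, was higher after culture, and their summed level ranged from 133708 to 161311 before culture and from 17910.0 to 19908 after it. Markers of other lung cells were also present. The summed level before and after culture was 23529 to 44383 and 6768 to 10580.0 for alveolar type 2 cells, 20810.4 to 30088 and 2282 to 3178 for endothelial cells, and 12721 to 21985 and 813 to 1687 for neutrophils. Every tested marker on those 3 lists was lower after culture (8 of 8, 8 of 8 and 6 of 6), as was each of 6 natural killer cell and 6 fibroblast markers, and the neutrophil marker Ly6g was at 0 in all 4 samples after culture. Of 7 T cell markers 1 was higher and 2 were lower. Summed B cell markers lay at 2516 to 4737 before and 2591 to 3603 after culture. Those of type 2 conventional dendritic cells lay at 19651 to 27256 before and 16602 to 29714 after culture. Of these 6 markers 1, Itgam, was higher, 4 were lower and 1, Sirpa, did not pass the test. Summed markers of monocytes and interstitial macrophages lay at 15108 to 35556.5 and 8524 to 23172. After culture both ranges overlapped that of type 1 conventional dendritic cells. In bulk RNA, fewer cells of a type and less RNA per cell cannot be told apart. The labels do not say whether samples are separate animals or pools, so p-values measure only the spread between these samples.

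Promoter sequence is shown for 4 of the genes because it separates them in base composition and in the few motif matches found. RefSeq (GRCm38.p6) gives a window of 300 bases, from 250 before to 50 after a transcript's start, for 8 of the 10 genes, and 10 windows in all since Cacnb3 and Tmem123 have 2 each. The windows of Samsn1 (chr16:75909217-75909516, minus strand, around a start inside the longest extent of the gene), Gadd45b (chr10:80929841-80930140, plus strand), Lamp3 (chr16:19706316-19706615, minus strand) and Birc3 (chr9:7873121-7873420, minus strand) read as follows, 5′ to 3′, with motif matches in capitals.
Samsn1: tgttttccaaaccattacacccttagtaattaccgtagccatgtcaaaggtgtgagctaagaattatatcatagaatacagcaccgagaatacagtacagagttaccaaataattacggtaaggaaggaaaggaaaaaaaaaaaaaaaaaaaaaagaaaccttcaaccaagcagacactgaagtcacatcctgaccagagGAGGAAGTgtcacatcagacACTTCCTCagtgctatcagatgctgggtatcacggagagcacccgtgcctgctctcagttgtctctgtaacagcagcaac
Gadd45b: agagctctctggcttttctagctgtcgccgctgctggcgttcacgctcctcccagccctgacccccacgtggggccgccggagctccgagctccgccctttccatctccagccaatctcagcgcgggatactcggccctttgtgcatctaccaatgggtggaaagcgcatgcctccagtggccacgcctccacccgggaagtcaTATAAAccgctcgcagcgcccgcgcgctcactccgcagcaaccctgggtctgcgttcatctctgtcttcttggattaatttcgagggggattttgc
Lamp3: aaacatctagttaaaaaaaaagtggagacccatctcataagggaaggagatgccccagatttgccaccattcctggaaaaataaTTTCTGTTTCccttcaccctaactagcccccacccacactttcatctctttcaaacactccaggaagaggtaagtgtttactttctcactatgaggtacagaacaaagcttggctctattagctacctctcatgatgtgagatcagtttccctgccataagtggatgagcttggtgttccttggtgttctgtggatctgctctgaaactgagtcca
Birc3: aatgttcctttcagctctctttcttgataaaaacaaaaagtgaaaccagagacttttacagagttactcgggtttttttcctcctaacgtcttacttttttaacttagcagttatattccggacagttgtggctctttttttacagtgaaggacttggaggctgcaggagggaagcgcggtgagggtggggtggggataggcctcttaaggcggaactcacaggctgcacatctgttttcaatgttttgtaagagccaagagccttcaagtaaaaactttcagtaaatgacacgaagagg

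The capitals in Samsn1 mark 2 matches to the PU.1 motif GAGGAAGT, 50 to 43 bases before the start on the plus strand of the gene and 30 to 23 bases before it on the minus strand. In Gadd45b they mark a TATA box (TATAAA) 46 to 41 bases before the start, and in Lamp3 a match to the interferon response motif (GAAA, any 2 bases, GAAA) on the minus strand, 166 to 157 bases before the start. Birc3 holds no match and so has no capitals. Both strands were searched in all 32851 windows of this length. The PU.1 motif was in 3.20% of them, the interferon response motif in 3.44% and the TATA box in 13.6%. The AP-1 motif TGANTCA was in 7.81% of all windows and the NF-kappaB consensus in 8.46%, and neither was in any of the 10 windows of these genes. That says only that these letters are absent from the windows. In the 4 printed windows the number of CG dinucleotides was 0 in Lamp3, 5 in Samsn1, 7 in Birc3 and 24 in Gadd45b, beside a median of 7 over all windows. Among the other windows 1 of Cacnb3 held 29 and 1 of Tmem123 held 26.

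After culture 8 of the 10 genes were higher and 2, Lamp3 and Gadd45b, were lower, at an adjusted p under 0.05 in limma, except that Gadd45b lost its call and its sign when values were corrected for GC content and length. Changes past that threshold were common in these samples. Of all tested genes 68.8% passed the same threshold, 34.2% as higher and 34.6% as lower. No gene of the 10 had overlapping values between the groups, and neither did 57.3% of all tested genes. The median log2 fold change of the 10 was 1.81, beside 0.01 over all tested genes. Only 0.445% of tested genes had a larger log2 fold change than Slco5a1, 1.35% than Cacnb3, 1.81% than Tmem123 and 2.95% than Anxa3. Samsn1 was exceeded by 3.90%, Traf1 by 6.34%, Cd200 by 7.86% and Birc3 by 11.1%. At the other end 5.71% of tested genes had a smaller (more negative) log2 fold change than Lamp3, and 32.8% than Gadd45b.

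**Figure D1:**
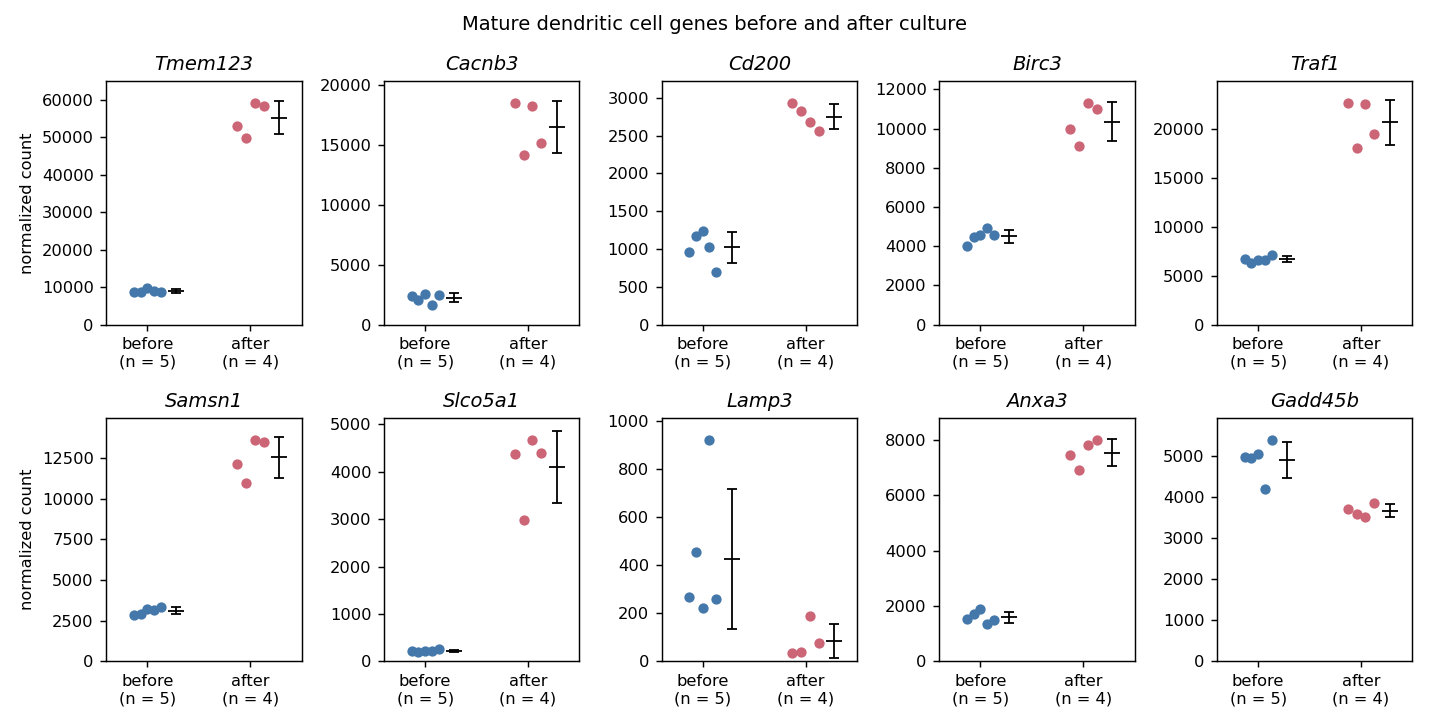
Normalized read counts of each of the 10 genes in the 5 samples before culture (blue) and the 4 after it (red), 1 point per sample, with the group mean and SD as a black bar; each vertical axis is linear, starts at 0 and has its own range. The groups do not overlap in any panel, 8 genes are higher after culture and Lamp3 and Gadd45b are lower (Gadd45b not once corrected for GC content and length).

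**Figure D2:**
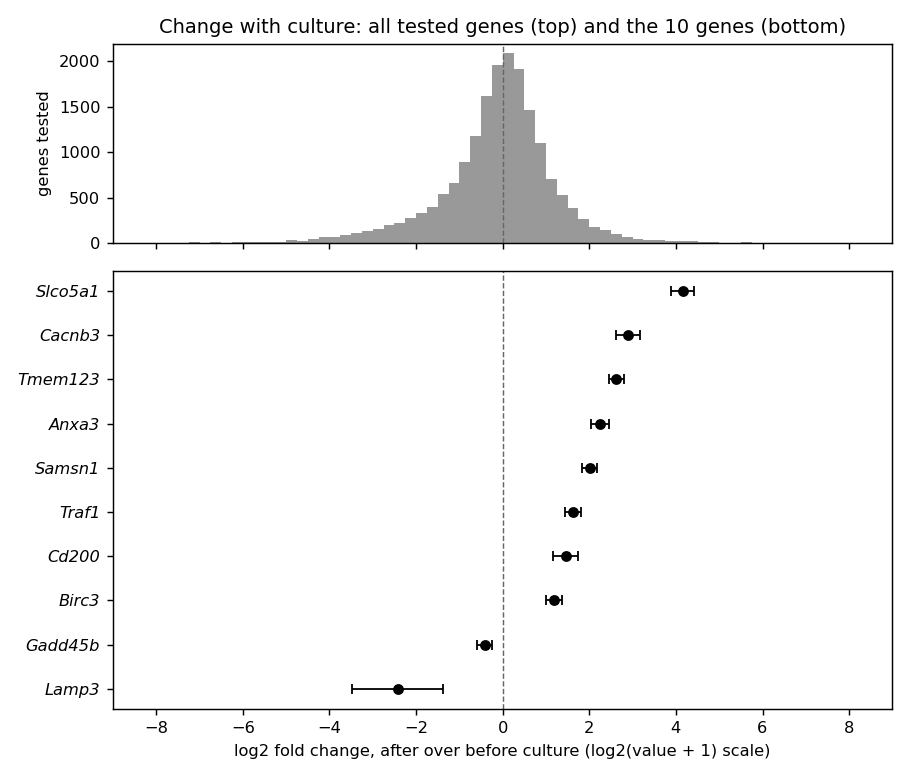
Log2 fold change, after over before culture, of all 18202 tested genes as a histogram (top) and of the 10 genes with 95% confidence intervals from limma (bottom), on the log2(value + 1) scale. Slco5a1 lies farthest to the right at 4.15, Lamp3 farthest to the left at -2.43 with the widest interval, and Gadd45b at -0.42 (0.0775 once corrected for GC content and length).

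Traf1 and Birc3, the pair that acts directly at TNF family receptors, both rose. Traf1 encodes TRAF1, an adaptor without the ubiquitin ligase domain of its relatives, which joins TRAF2 and the cellular inhibitors of apoptosis. Its normalized counts were 6692, 6346, 6671, 6624 and 7151 in replicates 1 to 5 before culture and 22672, 18127, 22565 and 19481 in replicates 1 to 4 after it. The 5 samples before culture lay close together, and each of the 4 after culture was far above them. The means of 6697 ± 289.6 (SD, n = 5) and 20711 ± 2271 (SD, n = 4) differed 3.09-fold. On the log2(value + 1) scale the rise was 1.62 (SE 0.0826, 95% CI 1.45 to 1.80, limma adjusted p = 1.33e-09). The gene lies at chr2:34941750-34961772 on the minus strand (GENCODE M21, GRCm38).

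Birc3 encodes cIAP2, a ubiquitin ligase that, with cIAP1, keeps the non-canonical NF-kappaB kinase NIK low in resting cells. It lies at chr9:7848699-7873186 on the minus strand. Its counts were 4015, 4486, 4591, 4939 and 4577 before culture and 9964, 9116, 11295 and 11017 after it. Replicate 2 was the lowest after culture, and still well above the highest sample before culture. The mean went from 4522 ± 332 (SD, n = 5) to 10348 ± 1002 (SD, n = 4), a 2.29-fold difference and the smallest rise among the 8 genes that rose (log2 fold change 1.19, SE 0.0837, limma adjusted p = 3.16e-08). Of the 50-base windows of the Birc3 transcript 7.66% occur in other transcripts. Gm7019 is the gene with the largest share of them, and its own row was near 0 in both groups (means of 0.796 and 0.411). Of the windows of Birc2 2.07% are shared, and Birc3 is the gene with the largest share of those.

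The relatives of both genes moved unevenly. Of the other 6 genes of the TRAF family 4 rose, 1 fell and 1 did not pass the test, with a median log2 fold change of 0.76. Traf2, the main partner of TRAF1, rose from 717 ± 48.5 to 1821 ± 154 (log2 fold change 1.34, limma adjusted p = 7.72e-09). Traf3, which holds NIK for degradation, rose by 0.93 and Traf6, an adaptor of Toll-like and CD40 signalling, by 0.88 on the log2 scale. Traf4 was the 1 that fell, from 1281 ± 113 to 229 ± 36.1 (log2 fold change -2.49, limma adjusted p = 4.43e-10). Among 8 tested genes of the inhibitor of apoptosis family, which has 1 further gene, Birc7, with too few reads to test, 5 rose and 3 fell. Birc2, which encodes cIAP1, rose from 1429 ± 162 to 6283 ± 1235, a log2 fold change of 2.12 (limma adjusted p = 5.42e-09) against 1.19 for Birc3. Xiap is counted among the 5 that rose (log2 fold change 0.19, limma adjusted p = 0.0459), but it lost its call under several alternatives and its sign turned with a correction for GC content and length. Birc5, whose product survivin serves chromosome segregation in dividing cells, fell from 348 ± 49.5 to 30.0 ± 10.6 (log2 fold change -3.55, limma adjusted p = 8.24e-09), and Naip5 and Naip6, which sense bacterial proteins, fell as well.

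Of 22 genes that work with TRAF1 and cIAP2 in NF-kappaB signalling 11 rose, 7 fell and 4 did not pass the test, and their median log2 fold change was 0.15. Of genes of the non-canonical branch, Relb rose from 3025 ± 221 to 10029 ± 739 (log2 fold change 1.73), Map3k14, which encodes NIK, by 1.14 and Nfkb2 by 0.45 on the log2 scale. Ikbkg, the regulatory subunit of the canonical kinase complex, rose by 1.85 and the TNF receptor gene Tnfrsf1b by 1.36. Chuk is also among the 11 (log2 fold change 0.16), but it lost its call under several alternatives. It was called lower when corrected for GC content and length (log2 fold change -0.17). Genes for inhibitors of the pathway moved unevenly. Tnfaip3, the gene of the deubiquitinase A20, fell from 32369 ± 1912 to 6264 ± 336 (log2 fold change -2.37, limma adjusted p = 1.75e-11), and Nfkbia and Nfkbie, which encode inhibitors that hold NF-kappaB in the cytoplasm, had log2 fold changes of -1.65 and -1.12. Tnip1, whose product binds A20, rose by 0.40 (limma adjusted p = 4.00e-04), and Nfkbib, another of the cytoplasmic inhibitors, did not pass the test (log2 fold change 0.09). Nfkbib was called higher once corrected for GC content and length (log2 fold change 0.68). Tnfrsf1a, the other TNF receptor gene, fell by 1.28 on the log2 scale. Bcl3, Bcl2l1 and Nfkb1 also fell, and Ripk1, Rel and Rela did not pass the test. Rela was called higher once corrected for GC content and length (log2 fold change 0.48) and lower under several other alternatives.

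Gadd45b was lower after culture, by the smallest margin of the 10 genes. It encodes a small stress-inducible protein that binds the kinases MEKK4 and MKK7 upstream of p38 and JNK, and its short gene lies at chr10:80930073-80932204 on the plus strand. Counts were 4955, 4947, 5033, 4188 and 5381 before culture and 3711, 3585, 3508 and 3856 after it. Replicate 4 was the lowest before culture, and the highest sample after culture lay a little below it, so the groups were separated by a narrow gap. The means were 4901 ± 436 (SD, n = 5) and 3665 ± 152 (SD, n = 4), 1.34-fold apart (log2 fold change -0.42, SE 0.0778, limma adjusted p = 3.38e-04). This call did not hold when each sample's trend over GC content and gene length was removed, where the log2 fold change was 0.0775 with a limma adjusted p of 0.324. Both other genes of the family fell further, Gadd45a from 726 ± 118 to 256 ± 24.8 (log2 fold change -1.49) and Gadd45g from 625 ± 132 to 189 ± 31.4 (log2 fold change -1.71). Among 10 genes for GADD45 binding partners and their kinase targets 9 were lower, 1, Mapk8, did not pass the test, and none was higher, with a median log2 fold change of -1.06. Map3k4, which encodes MEKK4, fell by 1.30, and the cell cycle partners Cdk1 and Ccnb1 fell by 2.33 and 2.09 on the log2 scale. Map2k7, the gene of MKK7, was lower by 0.30, but it was called higher with the correction for GC content and length (log2 fold change 0.23). Mapk8 was called lower under that correction (log2 fold change -0.57).

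Tmem123, Cd200 and Samsn1 all rose. Tmem123 encodes porimin, a heavily glycosylated protein of the cell surface, and lies at chr9:7764041-7794333 on the plus strand. Its counts were 8695, 8649.9, 9818, 9024 and 8655 before culture and 53128, 49919.9, 59101 and 58467 after it. Replicates within each group differed little beside the distance between the groups. The mean rose from 8968 ± 499.8 (SD, n = 5) to 55154 ± 4399 (SD, n = 4), 6.15-fold, with a log2 fold change of 2.62 (SE 0.0808, 95% CI 2.44 to 2.79, limma adjusted p = 1.40e-11). Of 3 other genes for mucin-like proteins of the CD164 type, Cd164 rose by 0.43 on the log2 scale (0.09 and not called once corrected for GC content and length), while Cd164l2 and the endothelial gene Emcn were lower, with log2 fold changes of -2.31 and -2.74.

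Cd200 encodes a surface ligand whose receptor, CD200R1, passes an inhibitory signal to myeloid cells. It lies at chr16:45382135-45409053 on the minus strand. Its counts were 966, 1169, 1241, 1032 and 698 before culture and 2929.9, 2832, 2682 and 2567 after it. Replicate 5 was the lowest before culture, and the 4 samples after culture all exceeded the highest of the first group by a wide margin. Means of 1021 ± 211 (SD, n = 5) and 2753 ± 161 (SD, n = 4) gave a 2.70-fold rise (log2 fold change 1.46, SE 0.136, limma adjusted p = 5.77e-07). Endothelial cells and B cells also express Cd200. All 8 endothelial markers were lower after culture, and of 6 B cell markers 1, Ms4a1, was higher (log2 fold change 0.61), 1, Pax5, was lower and 4 did not pass the test. The part of those cells in the Cd200 values was not tested. Of 4 genes of the receptor family 2 rose and 2 did not pass the test. Cd200r1, the inhibitory receptor, rose from 582 ± 60.3 to 1734 ± 427 (log2 fold change 1.55, limma adjusted p = 5.18e-07), and Cd200r4 by 0.86 on the log2 scale.

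Samsn1 encodes an adaptor with an SH3 and a SAM domain that restrains B cell activation. It lies at chr16:75858793-76022281 on the minus strand. Its counts were 2879, 2935, 3236, 3176 and 3365 before culture and 12138, 10963, 13614 and 13476 after it, again with no overlap and with replicate 2 the lowest after culture. The mean rose 4.02-fold, from 3118 ± 205 (SD, n = 5) to 12548 ± 1249 (SD, n = 4), and the log2 fold change was 2.01 (SE 0.0822, limma adjusted p = 1.77e-10). Its relatives Sash1 and Sash3 did not pass the test (log2 fold changes 0.36 and 0.11), although Sash1 was called higher without replicate 3 after culture (log2 fold change 0.64, limma adjusted p = 0.00154) and both were once corrected for GC content and length. Of the 50-base windows of the Samsn1 transcript 16.6% occur in transcripts of other genes, the largest share among the 10, and how such reads were counted is not given in the sources used here.

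**Figure D3:**
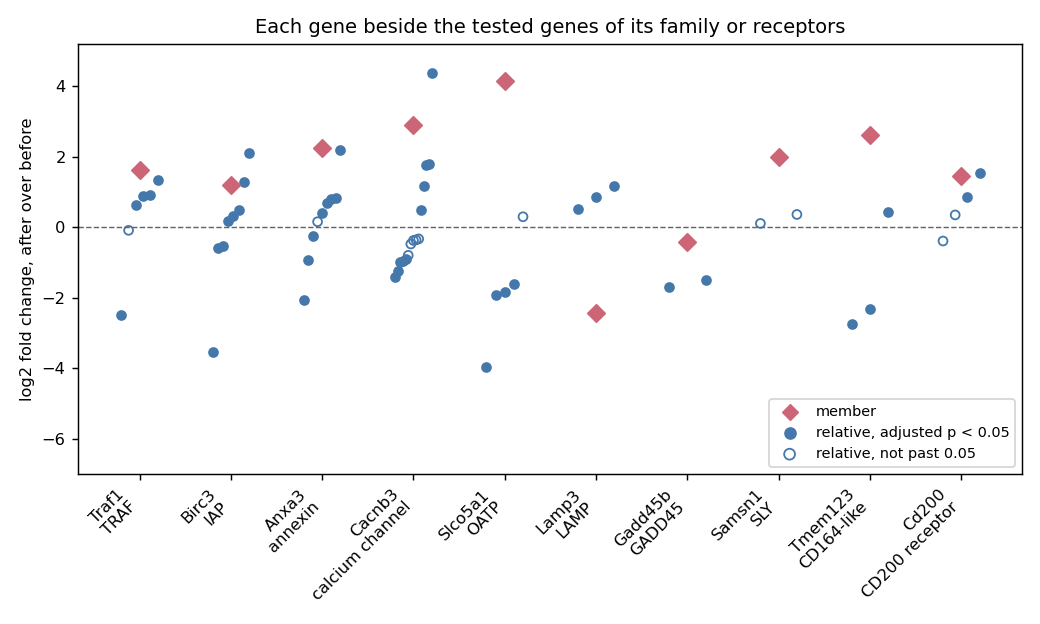
Log2 fold change, after over before culture, of each of the 10 genes (red diamonds) and of the tested genes of its family or receptors (blue points, filled where the limma adjusted p is under 0.05). Slco5a1, Tmem123, Samsn1, Anxa3, Traf1 and Gadd45b lie above all their plotted relatives, Cacnb3, Birc3 and Cd200 each have 1 or more relatives above them, and Lamp3 lies below all 3 of its own.

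The 3 genes with roles in transport, calcium and membranes, Slco5a1, Cacnb3 and Anxa3, rose. Slco5a1, a gene of the organic anion transporting polypeptides (OATPs), lies at chr1:12866549-12992650 on the minus strand. Its counts were 229, 202, 222, 224 and 258 before culture and 4374, 2983, 4669 and 4390.4 after it. The first group was tight, and replicate 2 stood below the other 3 samples after culture. The mean rose 18.1-fold, from 227 ± 20.1 (SD, n = 5) to 4104 ± 759 (SD, n = 4), the largest rise among the 10 genes (log2 fold change 4.15, SE 0.124, 95% CI 3.89 to 4.42, limma adjusted p = 1.07e-11). Its relatives did not rise in this test. Of 11 other OATP genes 5 had enough reads to test, of which 4 were lower, 1, Slco4a1, did not pass the test and none was higher (median log2 fold change -1.83). Slco2a1, a prostaglandin transporter, fell from 7815 ± 1256 to 501 ± 94.7 (log2 fold change -3.97, limma adjusted p = 3.28e-11), and Slco3a1 fell by 1.92 and Slco2b1 by 1.83 on the log2 scale. Slco4a1 (log2 fold change 0.30) was called higher under 4 alternatives, among them leaving out replicate 3 before culture (log2 fold change 0.40, limma adjusted p = 0.0356). The 6 not tested were Slco1a1, Slco1a4, Slco1a5, Slco1a6, Slco1b2 and Slco1c1.

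Cacnb3 encodes the beta 3 subunit of voltage-gated calcium channels, which brings the pore-forming subunit to the membrane. It lies at chr15:98630840-98644529 on the plus strand. Its counts were 2409, 2068, 2552, 1675 and 2492 before culture and 18473, 14132, 18253 and 15132 after it. Replicates 1 and 3 were high and replicates 2 and 4 lower after culture, a spread that was small beside the distance to the first group. The mean rose 7.37-fold, from 2239 ± 367 (SD, n = 5) to 16497 ± 2194 (SD, n = 4), and on the log2 scale the rise was 2.89 (SE 0.126, limma adjusted p = 3.18e-10). Its log2 fold change was 3.63 once trends over GC content and length were removed. Among 15 tested genes of other subunits 5 rose, 5 fell and 5 did not pass the test, and Cacna1s and Cacna2d3 had too few reads to test. Cacnb4, another beta subunit, rose from 12.7 ± 4.71 to 276 ± 42.7 (log2 fold change 4.39, limma adjusted p = 4.63e-09), and Cacnb1 rose by 1.80. Cacnb2 fell from 203 ± 35.9 to 74.3 ± 7.66 (log2 fold change -1.42). The pore-forming subunit genes Cacna1b and Cacna1d rose by 1.78 and 0.48 on the log2 scale, and Cacna1h, Cacna1f, Cacna1c and Cacna1g fell. Several of these calls were not firm. Cacna1g lost its call with no filter (limma adjusted p = 0.0662) and under 5 other alternatives, among them leaving out replicate 1 before or replicate 4 after culture (limma adjusted p = 0.0749 and 0.0871). Cacna1f lost its call without replicate 1 after culture (limma adjusted p = 0.0534), and Cacna1d lost its own without replicate 1 or 4 before or replicate 2 or 4 after culture (limma adjusted p from 0.0521 to 0.0935). With a minimum mean of 50 the subunit genes that fell numbered 2, and with trends over GC content and length removed 3.

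Anxa3 encodes annexin A3, which binds membranes when calcium is present and is abundant in neutrophils. It lies at chr5:96793339-96845966 on the plus strand. Its counts were 1533, 1719, 1879, 1343 and 1505 before culture and 7451, 6907, 7805 and 8005 after it, with no overlap and little spread in the second group. The mean rose 4.73-fold, from 1596 ± 207 (SD, n = 5) to 7542 ± 481 (SD, n = 4), which on the log2 scale is 2.25 (SE 0.0943, limma adjusted p = 2.19e-10). Summed neutrophil markers were 12721 to 21985 before and 813 to 1687 after culture, and the part of neutrophils in the Anxa3 values was not tested. A predicted transcript, Gm42603, shares exonic sequence with Anxa3 on the same strand, and its own row went from 40.9 ± 2.22 to 347 ± 101. Of 9 other annexin genes tested 5 rose, 3 fell and 1, Anxa2, did not pass the test, with a median log2 fold change of 0.40. Anxa4 rose nearly as much as Anxa3, from 3411 ± 467 to 15480.2 ± 1639.6 (log2 fold change 2.19, limma adjusted p = 8.94e-10). Anxa6 fell from 9236 ± 302 to 2245 ± 325 (log2 fold change -2.05, limma adjusted p = 3.41e-10) and Anxa8 by 0.94 on the log2 scale. Anxa11 was lower by 0.25, a call that was lost in 6 of 9 cases when 1 sample was left out and a sign that turned under the correction for GC content and length, and Anxa10 and Anxa13 had too few reads to test.

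Lamp3 went the other way from most of the set. It encodes DC-LAMP, a lysosomal membrane protein used as a marker of mature human dendritic cells, which in mouse lung is known above all from the lamellar bodies of alveolar type 2 cells. The gene lies at chr16:19653378-19706375 on the minus strand. Counts were 268, 454, 223, 921 and 258 before culture and 34.4, 39.4, 188 and 77.5 after it. Replicate 4 before culture and replicate 3 after culture, whose library names both carry the number 4, stood well above the rest of their groups. The highest sample after culture was still below the lowest before it. The mean went from 425 ± 292 (SD, n = 5) to 84.9 ± 71.6 (SD, n = 4), 5.00-fold lower (log2 fold change -2.43, SE 0.482, 95% CI -3.47 to -1.39, limma adjusted p = 5.41e-04). Of the 50-base windows of its transcript 5.11% are shared. Ppid, whose mean was 596 before and 925 after culture, is the gene with the largest share of them. The coefficient of variation of Lamp3 was 68.7% before and 84.3% after culture. Without replicate 3 after culture the means were 8.41-fold apart, without replicate 4 before culture 3.54-fold, and without both 5.96-fold.

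Genes of surfactant proteins, which alveolar type 2 cells make, followed the same samples. Sftpc was at 5561, 7467, 4857, 16826 and 4296 before culture and 893, 819, 3606 and 1142 after it. Sftpa1 was at 764, 1318, 705, 2886 and 691 before and 124, 106, 687 and 179 after culture. In both genes replicate 4 before culture and replicate 3 after culture were again the highest of their groups. Of the other type 2 cell markers, Sftpb, Sftpd, Slc34a2 and Epcam were also highest in these samples. Napsa (7064 and 1528) and Abca3 (4656 and 3074) were instead the lowest of their groups there, so the type 2 cell list did not move as 1. By the distance measure used for all 10 genes (the root mean square difference of log2 values over the 9 samples, each gene centred on its mean before culture), the nearest of 11786 genes to Lamp3 was Sftpa1, at 0.197. The part of these cells in the Lamp3 values was not tested. The 3 tested relatives of Lamp3 rose, Lamp1 by 1.17, Cd68 by 0.86 and Lamp2 by 0.51 on the log2 scale. Lamp2 was at 0.04 and not called once corrected for GC content and length, and Lamp5 had too few reads to test.

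**Figure D4:**
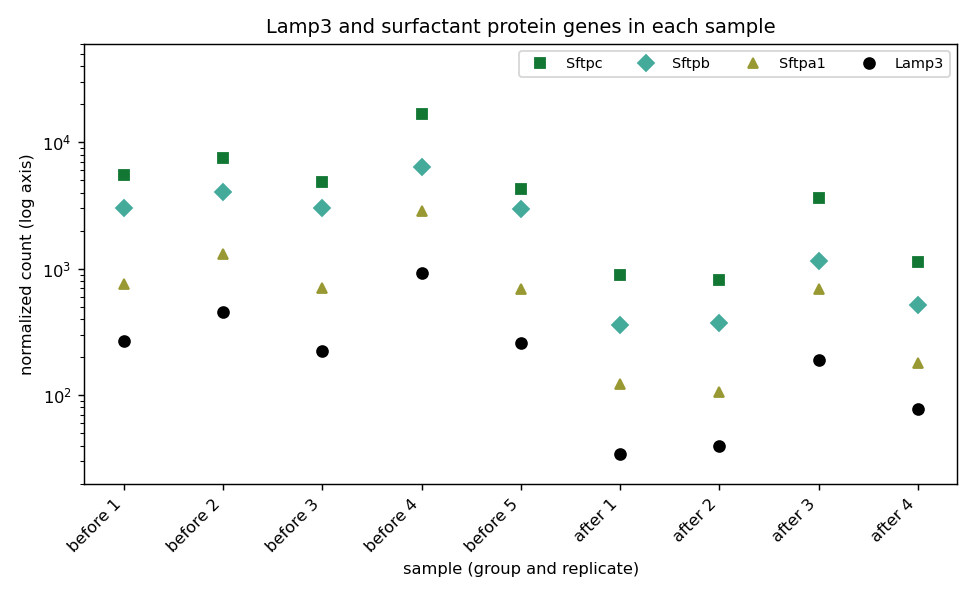
Normalized read counts (log axis) of Lamp3 and the surfactant protein genes Sftpc, Sftpb and Sftpa1 in each sample, by group and replicate. All 4 genes are highest in replicate 4 before culture and in replicate 3 after culture, and in each the samples after culture lie below those before it.

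Levels of the 10 genes were compared with each other per kilobase of exon. Length was that of all annotated exons of a gene joined, 8819 bases for Traf1 and 4935 for Samsn1. Their longest transcripts hold 3436 and 2112 bases. The order therefore rests on this choice of length, and no other length was tried. Before culture Gadd45b (3084 normalized counts per kb, range 2636 to 3386) and Tmem123 (2885, range 2782 to 3158) were the highest, and their ranges overlapped. Birc3 (903), Traf1 (759), Samsn1 (632), Cacnb3 (558), Anxa3 (438) and Cd200 (308) followed, with Lamp3 at 127 and Slco5a1 last at 17.3. Of these neighbours in the order, Tmem123 and Birc3, Traf1 and Samsn1, and Lamp3 and Slco5a1 had ranges that did not overlap. After culture Tmem123 stood alone at 17740.1 per kb (range 16057 to 19009.7), with Cacnb3 next at 4114. Samsn1 (2543), Traf1 (2348) and Gadd45b (2307) came next, each overlapping the one after it in this order. Anxa3 (2070.2) followed below the range of Gadd45b, and it overlapped Birc3 (2066). Cd200 (range 773 to 882), Slco5a1 (312) and Lamp3 (25.3) were below them, each apart from the next. By this length Gadd45b, at the top before culture, lay in the middle of the order after it. Slco5a1 and Lamp3 exchanged the lowest places, so the largest fold change of the set still left Slco5a1 near the bottom.

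**Figure D5:**
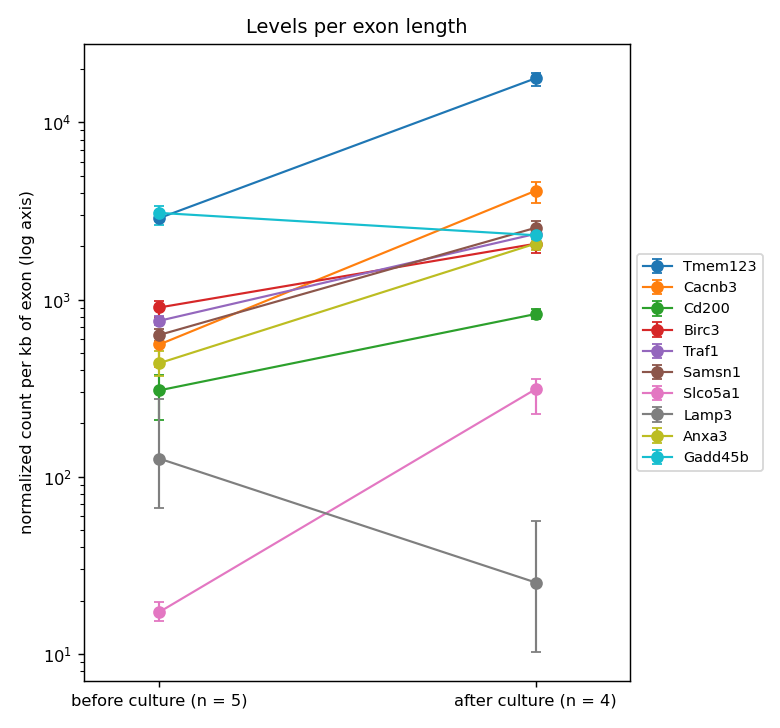
Normalized counts per kilobase of exon (log axis) of the 10 genes before and after culture, 1 colour per gene, with points for group means, bars from the lowest to the highest sample and lines that link a gene's means. Length is that of all annotated exons of a gene joined. Tmem123 and Gadd45b overlap at the top before culture, and Tmem123 is alone at the top after it.

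The set was also read beside 42 other genes of the mature dendritic cell program, of which Cd40, Relb and Nfkb2 are also among the NF-kappaB genes above. Of these 34 rose, 6 fell and 2 did not pass the test, with a median log2 fold change of 1.67 beside 1.81 for the 10 genes. Over all tested genes 34.2% were higher and 34.6% lower. Both lists were chosen with earlier results of these data known, so their likeness is no independent result. Ccr7, the chemokine receptor that guides dendritic cells to lymph nodes, rose from 7918 ± 372 to 53005 ± 2238 (log2 fold change 2.74, limma adjusted p = 4.56e-12), much as Tmem123 did. Fscn1, which bundles actin in dendrites, rose by 2.69 on the log2 scale. Lamp3 and Gadd45b were not alone in falling. Tnfsf9, Socs3 and Ccl17 were lower, with log2 fold changes of -3.88, -3.76 and -2.97, and the costimulatory gene Cd86, the maturation marker Cd83 and the adhesion gene Icam1 were lower by 0.46, 0.58 and 0.45, of which Icam1 lost its call once corrected for GC content and length. Socs1 and Cd70 did not pass the test, but both were called higher once corrected for GC content and length (log2 fold changes 0.65 and 1.15).

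Among the 8 genes that rose, replicate 2 after culture was the lowest in 7 of the 8, with Cd200 as the exception, where replicate 4 was lowest. Over all 6225 genes that rose, replicate 2 was the lowest in 37.5%. Replicate 3 was the highest in 4 of the 8, beside 34.5% of all genes that rose. Replicate 2 also had the highest summed level after culture on 7 marker lists, those of type 2 conventional dendritic cells (29714), monocytes and interstitial macrophages (23172), alveolar macrophages (11665), neutrophils (1687), endothelial cells (3178), alveolar type 1 cells (5635) and fibroblasts (4422). On the other lists another sample was highest, and replicate 2 was the lowest for T cells (4988) and natural killer cells (263). Some of these sums rest on few genes. Pdpn made up 5241 of the alveolar type 1 sum in replicate 2, while Ager (110) was lowest there. The alveolar macrophage marker Siglecf (237) was also lowest there. The part of the cells on these lists in the ranking was not tested.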

How the data were processed

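Bulk RNA-seq of 5 samples before and 4 after culture was used, grouped by the treatment label. The authors deposited 1 table of normalized counts per gene, a signal of whole reads divided by 1 factor per sample (DESeq2 and GRCm38 per the submitters' processing notes). The aligner, counting tool, annotation, strandedness and filters are not given in the sources used here, and the values carry no correction for length or GC content. All values (100%) were whole multiples, within 1e-06 reads, of 1 read, worth 0.758 to 1.79 normalized counts. Rows without a symbol (3782 of 49317) were left out. They held 6.43 to 10.9% of reads before and 3.87 to 5.46% after culture. Depth, 14.7 to 35.3 M reads, left at least 39 reads for every gene of the set in every sample.

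Rows with a mean of at least 10 were tested with limma 3.58.1 (R 4.3.3, trend, two-sided) on log2(value + 1), a scale that understates changes of low genes, with Benjamini-Hochberg adjustment over 18202 genes and a threshold of 0.05. Alternatives were other pseudocounts, filters and scalings, sample weights, edgeR 4.0.16 and DESeq2 1.42.0 on recovered reads, replicate blocks, leaving out samples, and a GC and length correction with mgcv 1.9.3. Scripts were tested on simulated data. Python 3.11.15, NumPy 2.4.6, pandas 2.3.3 and matplotlib 3.10.9 were also used.

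The 10 genes and all lists were chosen with earlier results of these data known. The text names all 10, and of each related list up to 3 genes with the smallest adjusted p, those passing against the gene's direction, and those not tested (some that qualify are left out). Other list genes were named after their values were seen. Likeness was searched among tested genes with a mean of at least 100. Positions, exon lengths, shared 50-base windows and GC content came from GENCODE M21 (GRCm38), which may not be the authors' annotation.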

Additional observations from a re-analysis of the deposited data

How the results depend on the processing

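With 8 genes higher and 2 lower as the result under test, every alternative but 1 gave the same 8 and 2, among them other pseudocounts, filters and scalings, edgeR, DESeq2, sample weights, and each sample left out in turn. The exception was the correction for GC content and length, which left 9 of the 10 genes called, 8 higher and 1 lower, and 9 without overlap. It moved the median log2 fold change of all genes from 0.01 to 0.13. Under it the sign turned for Gadd45b (0.0775, limma adjusted p = 0.324), Anxa11 (0.18), Cacna1i (0.45), Chuk (-0.17), Map2k7 (0.23), Rela (0.48), Traf7 (0.30) and Xiap (-0.28). Relative to that median Gadd45b stood at -0.0528. Of the genes whose sign turned, Cacna1i, Map2k7, Rela and Traf7 were called higher under it, and Chuk and Xiap lower. Bcl3, Cacna1f, Cacna1g, Cacna1h, Cd164, Icam1, Lamp2 and Traf5 kept their sign under it and lost their call. Anxa2 (0.38), Cd70 (1.15), Nfkbib (0.68), Sash1 (0.69), Sash3 (0.41), Slco4a1 (0.80) and Socs1 (0.65) gained a call as higher. Cacna2d1 (-0.59) and Mapk8 (-0.57) gained a call as lower. The cause was not tested. Genes called in all ran from 9925 with a minimum mean of 50 to 14150 with no filter, and from 11766 to 12691 with a sample left out.

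The replicate numbers of the titles and those of the library names differ. Deviations of samples with the same title number correlated at 0.08, 0.08, -0.21 and -0.04, and with the same library number at 0.08, 0.25, 0.35 and 0.04. Whether samples with the same library number share an origin was not tested, and the main fit did not pair them. With the title number as a replicate block 11646 genes were called and with the library number 12836, beside 12524 without a block, and all 10 genes of the set stayed called under both. By library number each sample after culture correlated best with its own number, while 1 sample before culture did not. An alternative chosen after seeing the data left out both libraries numbered 4, where Lamp3 was high, and called 12616 genes and all 10 of the set.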

Other observations

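The protein-coding genes next to the 10 on the chromosome (GENCODE M21, GRCm38) were looked at after their own values were known. Of 19 such neighbours 16 were tested, of which 7 were higher after culture, 7 lower and 2 did not pass the test. Over all tested genes 34.2% were higher and 34.6% lower, so a neighbour that changes is common here. Tmem123, Birc2 and Birc3 lie side by side on chromosome 9, with 23.9 kb between the first pair and 11.6 kb between the second, and all 3 rose. Yap1, 58.8 kb beyond Birc3, fell from 412 to 180.5 (log2 fold change -1.18), and Mmp7, a matrix metalloproteinase gene 64.5 kb before Tmem123, rose from 1.92 to 41.6 normalized counts. B3gnt5, the neighbour of Lamp3, rose from 711 to 4940.2 while Lamp3 fell. Btla, an inhibitory receptor gene beside Cd200, fell from 4259 to 441 while Cd200 rose. Adcy6, an adenylyl cyclase gene beside Cacnb3, rose with it, by 2.34 on the log2 scale.

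By the same root mean square distance over 9 samples, the nearest genes were Cyria to Tmem123 (0.0781), Foxj1 to Cacnb3 (0.121), Zfp560 to Cd200 (0.0982), Tcf7 to Birc3 (0.0501) and Il18bp to Traf1 (0.0686). Map4k4 was nearest to Samsn1 (0.0821), Gm2065 to Slco5a1 (0.192), Tpm1 to Anxa3 (0.118) and Qpctl to Gadd45b (0.0430). None of the 10 had another of the 10 as its nearest gene. The distance keeps the change with culture, so genes with unlike fold changes lie apart by construction. With 11786 genes searched, that absence says little about the set. These distances share all 9 libraries and describe likeness in these samples only.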
